A study of Mus musculus with 2 samples.

Results

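Thin limb of Henle cells were picked out of single-cell RNA sequencing of whole mouse kidney by 4 genes: Fst (follistatin, a secreted antagonist of activins), Slc14a2 (which encodes the urea transporters UT-A), Bst1 (an ADP-ribosyl cyclase of the cell surface) and Epha7 (an ephrin receptor). A barcode was taken as a thin limb cell when these 4 genes together had at least 5 UMIs (unique molecular identifiers, 1 per captured transcript) and at least 0.03% of its UMIs, when Ptprc, the pan-leukocyte gene, had 0 UMIs, and when the marker genes of the proximal tubule (Lrp2 plus Slc34a1), the thick ascending limb (Slc12a1), the distal convoluted tubule (Slc12a3) and principal cells (Aqp2) each stayed below the thin limb sum. This gave 76 control and 78 ischemia cells, 154 of the 16916 cells that passed the filters on depth and mitochondrial content and of the 30367 barcodes deposited. The cells were thus selected on measured values of those genes, and the levels of the 4 markers are given below as a description only.

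The control library came from the uninjured, contralateral kidney and the ischemia library from a kidney given 27 min of ischemia and 24 h of reperfusion, both of male wildtype C57BL/6J mice aged 19 weeks. Each condition is 1 library of 1 kidney, so no comparison between them has a replicate check, no test was made, and a difference between the libraries cannot be told apart from a difference between digests or captures. The ischemia time is that of the sample label, whereas the paper's surgery methods give a slightly shorter clamping with removal of the other kidney. Whether both kidneys came from 1 animal is not stated outright in the sources used here. The control kidney was not sham-operated and belonged to an animal with an injured kidney. All intervals are 95% intervals that cover counting error only.

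The thin limbs run between the proximal tubule and the thick ascending limb, down into the medulla and back. The descending limb takes water out of the tubule fluid through the water channel encoded by Aqp1 and, in short loops, carries the urea transporter UT-A2; the ascending limb is impermeable to water. The cells are thin, hold few mitochondria, and live in a hypertonic and poorly oxygenated interstitium, where they accumulate organic osmolytes through transporters such as those encoded by Slc6a6 (taurine) and Slc5a3 (myo-inositol).

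The control library held 15110 barcodes and 142686238 UMIs, of which 9031 barcodes were kept, and the ischemia library held 15257 barcodes and 142959737 UMIs, of which 7885 were kept. Thin limb cells made up 0.842% of kept control cells (exact interval 0.664 to 1.05) and 0.989% of kept ischemia cells (0.783 to 1.23), and the intervals overlapped. They carried 1567043 UMIs in control (per cell 1429 to 104247, median 14280) and 2814269 in ischemia (2496 to 118217, median 20614), with a median of 3895 and 4547 genes per cell. The median share of mitochondrial UMIs in thin limb cells was 6.94% in control and 6.67% in ischemia, against 23.9% and 21.6% in proximal tubule cells and 32.9% and 27.1% in thick ascending limb cells taken by gates of the same form. The libraries shared 88 barcodes, 27 of them among kept cells and 0 among thin limb cells.

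At the edge of the gate, 6 control and 2 ischemia cells had exactly 5 marker UMIs, and 3 control and 6 ischemia cells met every other criterion with 4. A further 2 cells in each library had enough marker UMIs but missed the share of 0.03%. The median thin limb cell had 55.5 marker UMIs in control and 85 in ischemia, with 651 and 1099 in the highest cell.

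The 4 genes of the gate lay at chr13:114452290-114458951 for Fst, chr5:43818885-43843986 for Bst1 and chr4:28813131-28967499 for Epha7 in GRCm38 (mm10), with Slc14a2 on another chromosome. Their levels are given in CPM (UMIs of a gene per 1000000 UMIs, both summed over the thin limb cells of a library). Fst stood at 2440 CPM in control and 1651 in ischemia, Slc14a2 at 2849 and 2316, Bst1 at 759 and 550, and Epha7 at 75.9 and 79.9. Over single cells, Fst ran from 0 to 7926 CPM in control and from 0 to 8721 in ischemia, with a median of 0 in both, since 34 of 76 control cells and 23 of 78 ischemia cells had any Fst UMI. Slc14a2 had a UMI in 47 control and 68 ischemia cells, Bst1 in 61 and 63, and Epha7 in 32 and 46. The median cell had 74.7 CPM of Slc14a2 in control and 1310 in ischemia, the opposite order to its summed CPM. For background from free RNA, Fst had a UMI in 0.711% of control and 0.916% of ischemia proximal tubule cells, at median depths of 11496 and 23213 UMIs, against 44.7% and 29.5% of thin limb cells. The same share in proximal tubule cells was 0.911% and 0.717% for Bst1, 1.87% and 2.99% for Slc14a2 and 6.57% and 10.9% for Epha7, and in principal cells Slc14a2 had a UMI in 6.4% and 10.1%.

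Genes outside the gate were then read to check the label. Aqp1 was 2057 CPM in control thin limb cells, 16.2 times its level in proximal tubule cells, the highest of the 4 other tubule gates and a segment that also expresses it, and 596 CPM in ischemia. This did not hold for the control cells in which Slc14a2 had most UMIs of the 4 gate genes, where Aqp1 was 22.6 CPM against 127 in proximal tubule cells. Cryab, a small heat shock protein of medullary cells, was 7488 CPM, 14.4 times its level in principal cells. Sptssb had 19 UMIs in control and 1 in ischemia. Slc14a2 is also a gene of the inner medullary collecting duct; Aqp2, which the gate limits, stood at 16.6 and 10.7 CPM and is no check of the label. The name therefore rests on genes of the descending limb and makes no claim about the ascending limb. It is not backed by Aqp1 in the control cells led by Slc14a2. In ischemia 30 of the 43 cells led by Slc14a2 likewise had 0 Aqp1 UMIs, and 1 cell held 49.2% of the Aqp1 UMIs of that group. Aqp1 had a UMI in 52 of 76 control and 41 of 78 ischemia cells, and in 12 of the 21 control cells led by Bst1.

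Markers of other cell types were counted in the same cells. The 10 proximal tubule markers summed to 1177 CPM in control and 452 in ischemia, with Kap, a gene of male proximal tubule, as the most abundant (595 and 234), and none of the 10 was at 0. The 8 thick ascending limb markers summed to 415 and 178 CPM, led by Umod in control (153) and Cldn19 in ischemia (78.2). The 7 markers of the distal convoluted and connecting tubule gave 394 and 268 CPM, led by Klk1 (290 and 130), with 76.9% and 70.3% of the Klk1 UMIs in 1 cell of each library. The 6 principal cell markers gave 84.2 and 103 CPM, led by Fxyd4. The 6 endothelial markers gave 55.5 and 45.8 CPM, led by Emcn, and the 5 podocyte markers gave 30 and 27.4 CPM, led by Synpo. The 7 macrophage markers gave 78.5 and 17.8 CPM, of which Csf1r held 72.1 and 9.24, with Ptprc at 0 by the gate and C1qa and C1qb at 0 in control. Neutrophil markers gave 0 and 6.4 CPM, the 4 markers of T and NK cells were at 0 in both libraries, and B cell markers gave 7.02 and 2.13 CPM. The 4 urothelial markers gave 21.1 and 0 CPM, all but 1 UMI of it Psca.

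Single cells carried the signal of 2 further types. The 6 fibroblast and mural markers summed to 81.7 CPM in control, where Dcn held 75.3, and 241 CPM in ischemia, where Acta2 held 189 and Myh11 47.3. A single cell held 99.2% of the control Dcn UMIs, and a single cell held 60.1% of the ischemia Acta2 UMIs. The 6 intercalated cell markers gave 24.9 and 72.5 CPM, with 92.9% of the ischemia Atp6v1g3 UMIs in 1 cell; without the top cell of each library its log2 ratio was -1.93 in place of 1.71. The 4 markers of parietal epithelium gave 1309 and 1572 CPM, mostly from Pax8 and Akap12, which other epithelia also express. Of the other members, Ncam1 was 45.9 and 106 CPM, past 2-fold higher in ischemia (2.31), and Cldn1 had 5 and 61 UMIs. No doublet caller was run, and these cells stayed in.

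Within the thin limb cells the 4 markers were not spread evenly. Each cell was assigned the marker with most UMIs in it, a grouping chosen after the data were seen. Fst led in 34 of 76 control cells (44.7%, 33.3 to 56.6) and 19 of 78 ischemia cells (24.4%, 15.3 to 35.4). Slc14a2 led in 20 control cells (26.3%, 16.9 to 37.7) and 43 ischemia cells (55.1%, 43.4 to 66.4). Bst1 led in 21 (27.6%) and 12 (15.4%), and Epha7 in 1 and 4. These shares rest on the gate genes and on 1 library a condition and are a description only, and each ratio given below over all thin limb cells also carries the difference in mix.

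Fst and Slc14a2 marked largely separate cells in control. None of the 20 control cells led by Slc14a2 had an Fst UMI, and 15 of the 34 led by Fst had a Slc14a2 UMI, at 53.5 CPM. In ischemia 18 of the 19 cells led by Fst had one, at 677 CPM, at a median depth of 35486 UMIs against 15556 in control. A few deep cells weighed heavily in that sum. Cells of 98650 and 115949 UMIs had 2565 and 1121 CPM of Slc14a2, whereas a cell of 113678 UMIs had 132. After thinning to 2000 UMIs per cell, which left out 2 control cells as too shallow, Slc14a2 was seen in 33.8% of control and 70.5% of ischemia thin limb cells (61.8% and 87.2% unthinned), and Fst in 43.2% and 25.6% (44.7% and 29.5% unthinned).

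**Figure D1:**
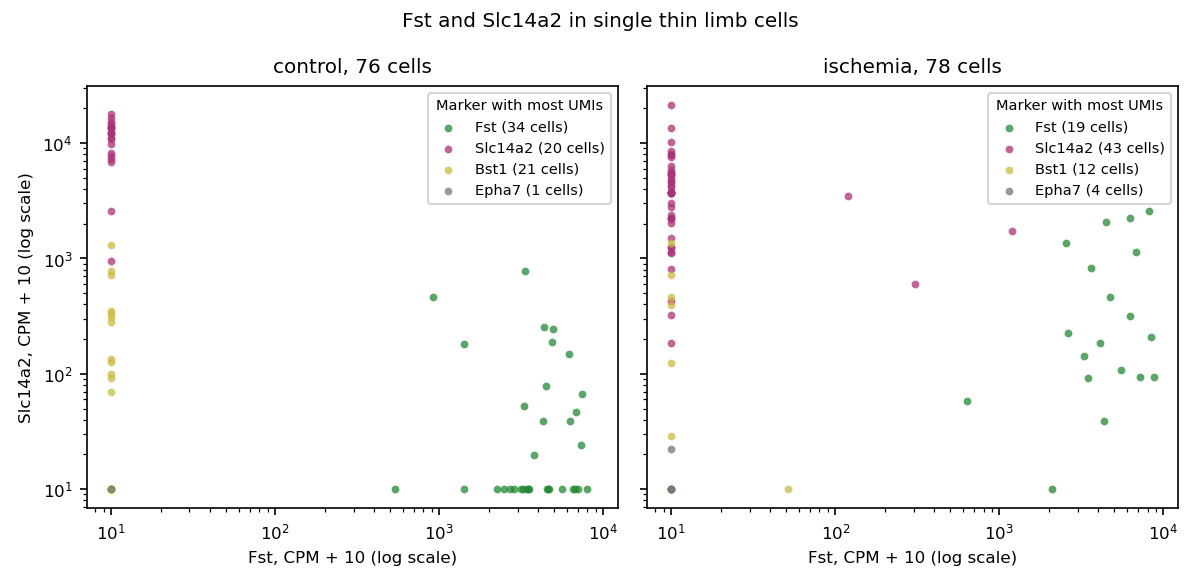
Each point is 1 thin limb cell, with Fst on the x axis and Slc14a2 on the y axis, both in CPM of that cell plus 10 on log scales, control (76 cells) left and ischemia (78 cells) right, coloured by the marker with most UMIs. In control, cells led by Slc14a2 (20) sit at 0 Fst and many cells led by Fst (34) at 0 Slc14a2, whereas in ischemia 18 of 19 cells led by Fst carry Slc14a2.

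The control cells led by each marker differed in genes that the gate did not use. Aqp1 was 3143 CPM in cells led by Fst, 1709 in those led by Bst1 and 22.6 in those led by Slc14a2, where 7 of 20 cells had a UMI. Spp1, which encodes the secreted phosphoprotein osteopontin, was 23074 CPM in cells led by Fst, 3929 with Slc14a2 and 2859 with Bst1. Lypd2, a Ly6 family gene, had 427 of its 428 control UMIs in cells led by Fst. Angpt2, the vascular ligand angiopoietin 2, was 878 CPM in cells led by Slc14a2, 164 with Bst1 and 139 with Fst. The share of mitochondrial UMIs also differed, with a median of 13.8% in control cells led by Fst and about the same low value in those led by Slc14a2 (4.36%) and Bst1 (4.38%).

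Beyond the gate, 15 genes had the highest level in thin limb cells relative to the highest of the 4 other tubule gates, taking the lower value of the libraries. In order they were Angpt2, Cdh13, Sorcs3, Tshz2, Htr4, Cntf, Ankrd1, Corin, Ifit3, Ifit3b, Akap12, D030045P18Rik, Tert, Slc4a11 and Proser2. Angpt2 was 312 CPM in control and 121 in ischemia thin limb cells, 272 and 191 times the highest other gate, where no gate exceeded 1.15 CPM. Tshz2, a zinc finger transcription factor gene, was 1077 and 811 CPM, 96.5 and 266 times the highest other gate. Cdh13, an adhesion molecule anchored by a lipid, was 254 and 95.2 CPM in 22 and 20 cells, and Htr4, a serotonin receptor, was 177 and 47.6 CPM in 19 and 20 cells. Corin, the protease that activates atrial natriuretic peptide, was 110 and 37.7 CPM.

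Of these 15 genes, 11 had a ratio of ischemia to control CPM below 1 and 6 were at least 2-fold lower, against 5.58% of all genes counted (those with at least 100 UMIs). The ratio was 0.387 for Angpt2 (0.336 to 0.446), 0.375 for Cdh13, 0.268 for Htr4, 0.343 for Corin and 0.753 for Tshz2. With Slc14a2 left out of the gate, the direction of Corin turned (log2 ratio 0.096). Cells led by Fst gave 0.116 for Angpt2 and those led by Slc14a2 gave 0.225. Ankrd1, a nuclear ankyrin repeat protein known from heart muscle, was the only one of the 15 past 2-fold higher, at 386 and 832 CPM (2.15, 1.97 to 2.36). Ifit3 and Ifit3b, interferon-induced genes, were within 2-fold at 1.12 and 1.22, as was Akap12, a scaffold of protein kinase A, at 1.51.

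**Figure D2:**
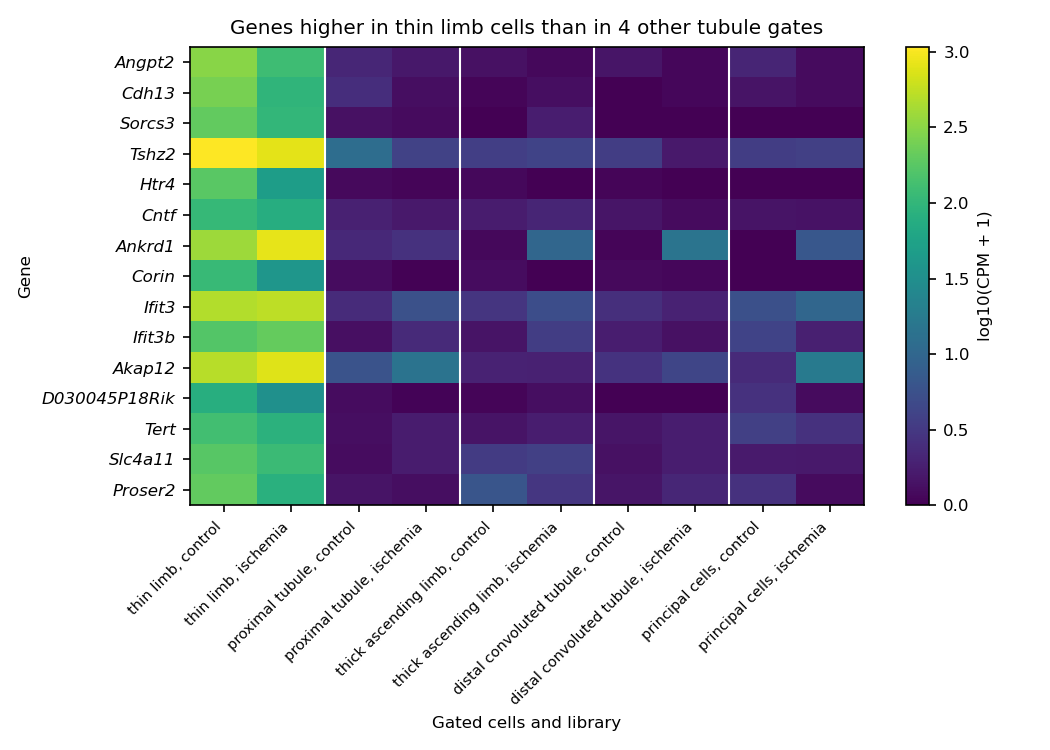
Rows are the 15 genes highest in thin limb cells relative to 4 other tubule gates, columns are gated cells by library, and colour is log10(CPM + 1). Thin limb columns are bright in both libraries, Angpt2 (312 and 121 CPM) stays at or below 1.15 CPM in every other gate, and Ankrd1 also appears in ischemia distal convoluted tubule (13.6 CPM) and thick ascending limb cells (9.15 CPM).

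The comparison of ischemia with control covered the 6022 genes with at least 100 UMIs over the thin limb cells of both libraries. This minimum is of both libraries together, so a gene can reach it through the library where it is high. Of these, 278 (4.62%) were at least 2-fold higher in ischemia and 336 (5.58%) at least 2-fold lower, and the median log2 ratio was -0.0026. Genes past 2-fold higher included Havcr1 and Lcn2 of tubule injury and the metallothioneins Mt1 and Mt2, and genes past 2-fold lower included the water channel gene Aqp1, the sodium pump subunit gene Atp1b1 and the taurine transporter gene Slc6a6.

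The 15 highest ratios, among genes with at least 200 UMIs in at least 20 thin limb cells, were those of Havcr1, Tmem252, Clu, Sgk1, Lcn2, Plat, Gpc6, Sbsn, Srd5a1, Adamts5, Steap2, Defb1, Steap1, Mylk and Ly6a. Havcr1 encodes KIM-1, the phosphatidylserine receptor by which injured tubule cells take up debris. It had 1 UMI in control and 739 UMIs in 48 of 78 ischemia cells (263 CPM), a ratio of 411 (73.6 to 16275). In other ischemia cells it was 406 CPM in the proximal tubule, 21.8 in the thick ascending limb, 27 in the distal convoluted tubule and 12.4 in principal cells. The share of cells with a Havcr1 UMI in ischemia was 61.5% in thin limb, 69.1% in proximal tubule, 39.9% in thick ascending limb, 38.4% in distal convoluted tubule and 31% in principal cells, where the median cell had 20614, 23213, 24686, 19100 and 21806 UMIs. With cells thinned it was 23.1%, 33.2%, 5.04%, 9.57% and 3.18%. Within ischemia thin limb cells it was 772 CPM in those led by Fst (18 of 19 cells), 35.2 in those led by Slc14a2 and 40.5 in those led by Bst1.

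Lcn2, the iron-siderophore binding protein NGAL, was at 60.6 CPM in control and 1043 in ischemia (17.2, 14 to 21.3), with UMIs in 23 and 71 cells. Its spread over leading markers ran the other way from Havcr1, at 156 CPM in ischemia cells led by Fst, 782 with Bst1 and 1704 with Slc14a2. Clu, the chaperone clusterin, had a ratio of 23.1, but 1 cell held 73.3% of its ischemia UMIs. With the top cell of each library left out, the log2 ratio of Clu was 2.94 in place of 4.53.

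Tmem252 (a transmembrane protein gene) and Sgk1 (a kinase induced by hypertonicity and mineralocorticoids) were higher in ischemia thin limb cells, with ratios far from those of other tubule cells. Tmem252 was 12.8 CPM in control and 356 in ischemia (27.9, 18 to 45.9), with UMIs in 15 and 56 cells. Its ratio was 1.37 in proximal tubule, 1.21 in thick ascending limb, 1.17 in distal convoluted tubule and 0.424 in principal cells. Sgk1 was 12.8 and 225 CPM (17.6, 11.3 to 29.1), with UMIs in 13 and 55 cells, and its ratio in those 4 gates was 1.17, 1.52, 1.43 and 0.668. Tmem252 and Sgk1 were picked for their high thin limb ratios, so their distance from the other gates is a description only. Both were high in the ischemia cells led by Fst, Slc14a2 and Bst1, at 480, 356 and 156 CPM for Tmem252 and 192, 297 and 78.2 CPM for Sgk1.

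Further genes of this group encode secreted or surface proteins. Plat, tissue plasminogen activator, was 8.3 CPM in control and 113 in ischemia (13.6, 7.85 to 25.9). Gpc6, a heparan sulfate proteoglycan, had a ratio of 11.2, and Adamts5, an aggrecan protease, of 7.13 with 40.1% of its ischemia UMIs in 1 cell. Defb1, an epithelial antimicrobial peptide, was 127 and 895 CPM (7.05, 6.1 to 8.18), though in cells led by Bst1 it was 112 and 34.8. Of the intracellular enzymes, the steroid 5-alpha reductase gene Srd5a1 had a ratio of 7.21.

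The 15 lowest ratios were those of Lypd2, Car14, Ranbp3l, Fabp3, Gadd45b, Cox7a1, Slc9a3, Agt, Apela, Id3, Fmo2, Igfbp5, Cdkl1, Id4 and Irf1. Lypd2 was 273 CPM in control and 6.04 in ischemia (0.0221, 0.0128 to 0.0358), and in cells led by Fst, the group that held it, 531 and 19.6 CPM. Ranbp3l was 438 and 32.7 CPM (0.0746), and 0.0406 in cells led by Slc14a2. Apela, a ligand of the apelin receptor, was 1707 and 227 CPM (0.133, 0.122 to 0.145), with ratios of 0.138, 0.147 and 0.198 in cells led by Fst, Slc14a2 and Bst1. The inhibitors of basic helix-loop-helix factors Id3 (749 and 107 CPM, 0.143) and Id4 (133 and 21 CPM, 0.158) were low together, with Id3 at 0.314 in cells led by Fst and 0.0933 in those led by Slc14a2. Igfbp5 had 75.9% of its control UMIs in 1 cell, and its log2 ratio was -1.13 without the top cells in place of -2.69.

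Gadd45b, a stress gene, and Irf1, an interferon regulatory factor gene, were low in thin limb cells (395 and 32.7 CPM, 0.0828; 256 and 40.9 CPM, 0.16). Their ratios were 1.1 and 2.16 in proximal tubule, 1.67 and 1.9 in thick ascending limb, and 2.95 and 2.63 in distal convoluted tubule cells. In principal cells both were below 1, at 0.359 and 0.271. Gadd45b and Irf1 were picked for their low thin limb ratios, so their distance from the other gates is a description only.

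**Figure D3:**
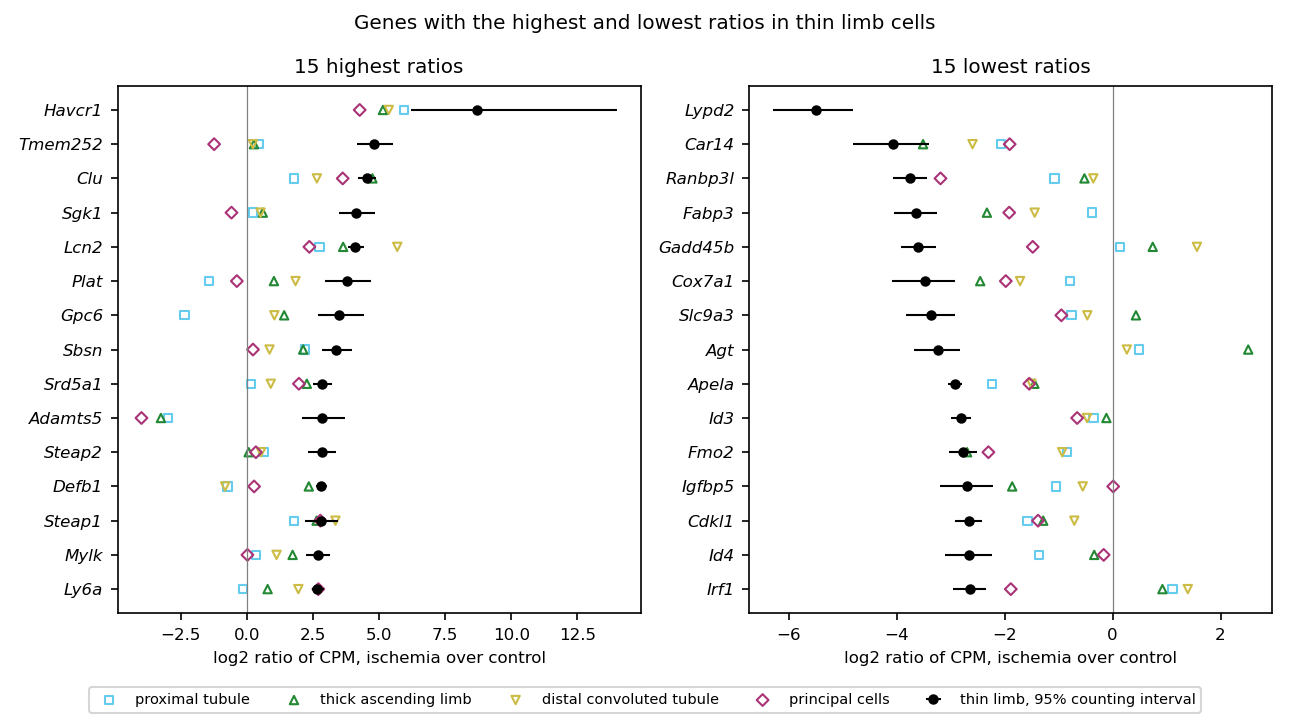
The log2 ratio of ischemia to control CPM is plotted for the 15 genes with the highest ratios (left) and the 15 with the lowest (right) in thin limb cells, as black points with 95% counting intervals, and open symbols give the same genes in 4 other tubule gates where these held UMIs in both libraries and at least 20 in all. Tmem252 and Sgk1 lie far to the right of the open symbols, and Irf1 and Gadd45b lie left of 0 while 3 of their 4 open symbols lie right of it.

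Promoter sequences of 4 of these genes are shown because they stand for the sets with high ratios (Tmem252, Sbsn), low ratios (Id3) and thin limb enriched (Ankrd1) levels. They are the 250 bases before the RefSeq start in GRCm38.p6, 5′ to 3′ on the strand of the gene, at chr19:24673758-24674007 (+), chr7:30751221-30751470 (+), chr4:136143572-136143821 (+) and chr19:36119845-36120094 (-). Capitals mark matches to the letters TGANTCA or GGAATG (the site of TEAD factors), read on both strands. TGANTCA was read with any base at N and is thus looser than the site of AP-1, which has C or G there.
Tmem252: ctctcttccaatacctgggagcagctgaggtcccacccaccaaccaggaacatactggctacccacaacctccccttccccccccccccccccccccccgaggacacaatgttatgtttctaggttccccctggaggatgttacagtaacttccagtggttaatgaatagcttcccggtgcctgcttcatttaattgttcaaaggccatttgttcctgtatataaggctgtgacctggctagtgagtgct
Sbsn: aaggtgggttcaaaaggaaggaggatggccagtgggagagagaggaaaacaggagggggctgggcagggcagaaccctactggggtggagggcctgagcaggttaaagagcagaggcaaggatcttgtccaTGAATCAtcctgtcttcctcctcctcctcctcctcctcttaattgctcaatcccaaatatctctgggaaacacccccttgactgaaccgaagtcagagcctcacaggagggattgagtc
Id3: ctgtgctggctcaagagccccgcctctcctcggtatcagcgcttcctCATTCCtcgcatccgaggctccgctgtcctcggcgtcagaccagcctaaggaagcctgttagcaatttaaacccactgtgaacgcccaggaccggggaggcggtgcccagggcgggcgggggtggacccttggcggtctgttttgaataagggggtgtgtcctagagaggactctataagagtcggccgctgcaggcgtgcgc
Ankrd1: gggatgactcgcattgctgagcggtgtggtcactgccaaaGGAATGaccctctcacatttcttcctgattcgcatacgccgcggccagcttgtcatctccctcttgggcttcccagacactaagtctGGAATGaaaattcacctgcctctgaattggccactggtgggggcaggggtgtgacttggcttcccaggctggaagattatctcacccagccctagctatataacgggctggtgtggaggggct
Ankrd1 held GGAATG at 2 places, starting 210 and 123 bases before the start, and Id3 held it once on the other strand. Sbsn held TGANTCA once, as TGAATCA, which is not the AP-1 site in the strict sense. Of the 32851 RefSeq promoter windows, 12.6% held GGAATG and 6.75% held TGANTCA on either strand, 1.55% held TGACGTCA (the cAMP response element) and 0.356% held the 10-letter consensus of NF-kB. TGANTCA was in 2 of the 9 genes with a window among the 15 highest ratios and in 0 of 14 among the lowest, and GGAATG was in 3 of 9 and 5 of 14. Among the 10 thin limb enriched genes with a window, TGANTCA was in 3 and GGAATG in 1, Ankrd1. A gene was counted when any of its windows matched, whereas the shares over all promoters are of single windows, so the measures differ. None of the windows of these sets held TGACGTCA or the NF-kB consensus. A match is a string of letters and not a measured site.

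In the list of water, urea and ion transport, 11 of 20 genes, the gate gene Slc14a2 among them, reached 100 UMIs, 0 were at least 2-fold higher and 4 were at least 2-fold lower (4.62% and 5.58% over all genes counted, the shares to read each list below against), with a median log2 ratio of -0.66. Aqp1 was 2057 CPM in control and 596 in ischemia (0.29, 0.273 to 0.308). Slc9a3, the sodium-proton exchanger NHE3, was 179 and 17.4 CPM (0.0974), and the beta and FXYD subunits of the sodium pump were 3052 and 991 CPM for Atp1b1 (0.325) and 3378 and 732 CPM for Fxyd2 (0.217). The potassium channel subunit gene Kcnj16 (0.634) and the glucose transporter gene Slc2a1 (1.63) were among the 7 within 2-fold. The proximal tubule markers in the same cells went from 1177 to 452 CPM, and their part in the values of Slc9a3 and Fxyd2 was not tested. Fxyd2 was 3318 and 3680 CPM in proximal tubule cells.

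The summed values of several of these genes lay on opposite sides of 1 in cells grouped by leading marker. These groups are set by the gate genes, whose own levels and mix differed between the libraries, so a ratio within a group can compare cells of different make-up. Aqp1 was 3143 and 878 CPM in cells led by Fst (0.279) and 1709 and 1014 CPM in cells led by Bst1 (0.593), but 22.6 and 382 CPM in cells led by Slc14a2 (16.9, 8.52 to 39.4). That last ratio rests on 8 control UMIs and on few ischemia cells, since 30 of the 43 had 0 Aqp1 UMIs and 1 cell held 49.2% of the 565; without the top cell of each library it was 11.9. The top ischemia cell also had 1228 CPM of Bst1 beside 2016 of Slc14a2, and no control cell led by Slc14a2 exceeded 285 CPM of Aqp1. Fxyd2 was likewise 5434 and 1333 CPM with Fst (0.245) and 257 and 453 CPM with Slc14a2 (1.76). In the cells led by Slc14a2, 1 cell held 35.2% of the ischemia Fxyd2 UMIs, and without the top cell of each library the ratio was 1.41. Slc4a11, a transporter of the SLC4 family, was 305 and 148 CPM with Fst (0.487) and 16.9 and 107 CPM with Slc14a2 (6.3, 2.83 to 17.4). Spp1 was 1.15 with Fst, 1.05 with Bst1 and 4.16 with Slc14a2. Over all thin limb cells Spp1 was 13467 and 18495 CPM (1.37), while its ratio in the other 4 gates ran from 6.79 to 9.94. Atp1b1, in contrast, was low with Fst (0.336), Slc14a2 (0.365) and Bst1 (0.404).

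**Figure D4:**
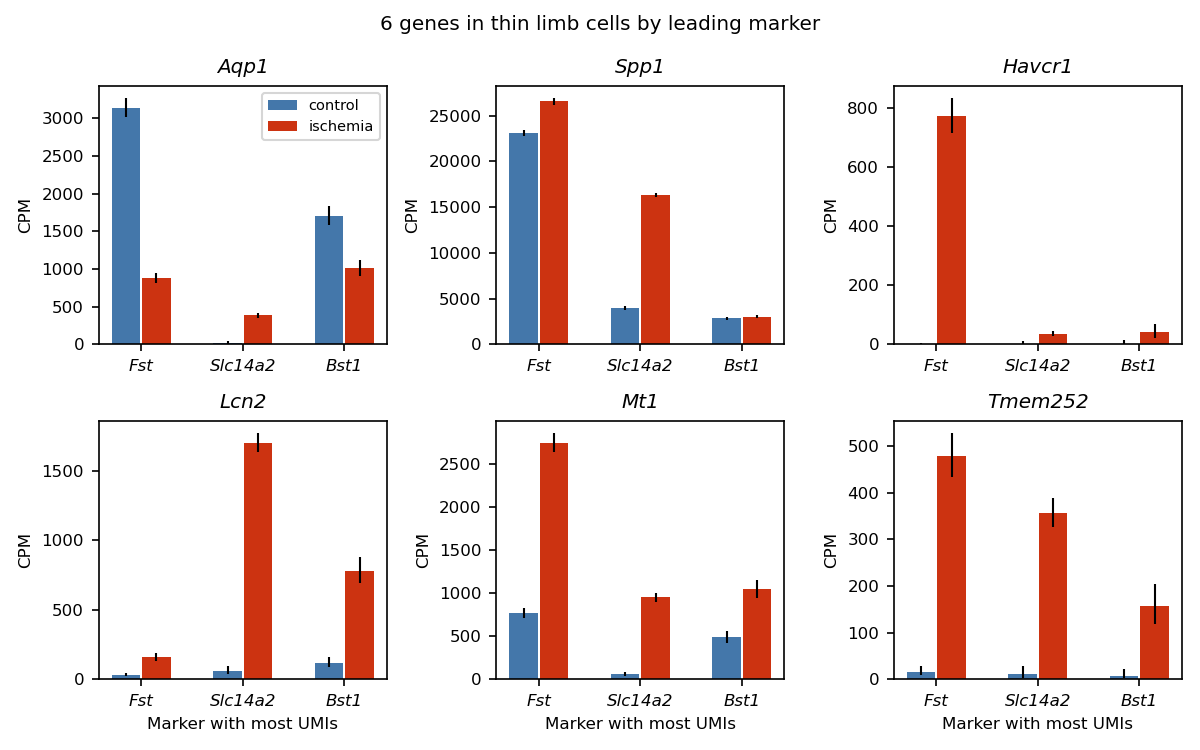
Bars give CPM of 6 genes over control (blue) and ischemia (red) thin limb cells led by Fst (34 and 19 cells), Slc14a2 (20 and 43) or Bst1 (21 and 12), with 95% Poisson intervals of the counts. Havcr1 in ischemia is high in cells led by Fst (772 CPM) and Lcn2 in those led by Slc14a2 (1704 CPM), while Aqp1 is lower in ischemia with Fst and Bst1 and higher in the sum over cells led by Slc14a2, where 30 of 43 cells have 0 Aqp1 UMIs and 1 cell holds 49.2%.

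The other markers of the thin limb on a list of 12 had 10 counted, 1 at least 2-fold higher and 2 lower, with a median log2 ratio of -0.52. The higher one was Cp, the copper ferroxidase ceruloplasmin (366 and 784 CPM, 2.14, but a log2 ratio of -0.59 in cells led by Bst1), and the lower ones were Aqp1 and Cdh13. Cryab was 7488 and 3902 CPM (0.521, 0.508 to 0.535), whereas its ratio was 5.56 in proximal tubule, 2.74 in thick ascending limb, 5.01 in distal convoluted tubule and 0.452 in principal cells.

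Osmotic response genes lay on both sides of 1, with 9 of 12 counted, 2 at least 2-fold higher, 1 lower and a median log2 ratio of -0.33. The taurine transporter gene Slc6a6 was 651 and 200 CPM (0.308, 0.277 to 0.342), at 0.284, 0.272 and 0.246 in cells led by Fst, Slc14a2 and Bst1. Slc5a3 was 127 and 278 CPM (2.19), at 6.25 in cells led by Fst but 0.736 in those led by Slc14a2. Akr1b3, the sorbitol-forming aldose reductase, was 0.575, and the transcription factor Nfat5, which drives these genes in hypertonicity, was 0.794. Besides Slc5a3, Sgk1 was the other gene past 2-fold higher.

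Of the tubule injury genes, 15 of 18 were counted, 9 were at least 2-fold higher and 1 was lower, with a median log2 ratio of 1.04 against -0.0026 over all genes. The 9 were Havcr1, Lcn2, Clu, Cd44, S100a6, Cd24a and the simple keratins Krt8, Krt18 and Krt19, of which Cd24a had a log2 ratio of -0.16 in cells led by Bst1. Of the 9, Havcr1, Lcn2, Clu, Cd44 and Krt19 had 1, 95, 72, 11 and 23 control UMIs. They reached the minimum of 100 UMIs only with those of ischemia, where they were higher, so the count of 9 is a description only. S100a6, a calcium-binding protein, was 2246 CPM in control and 12256 in ischemia (5.46), with ratios of 11.5, 5.58 and 6.46 in cells led by Fst, Slc14a2 and Bst1. Krt8 was 205 and 476 CPM (2.32) and Krt18 220 and 561 CPM (2.55), while Krt7 was within 2-fold (1.66). Cd44, a hyaluronan receptor, was 7.02 and 33.4 CPM (4.76). Below the minimum of 100 UMIs, Vcam1 had 0 and 85 UMIs, 69.4% of them in 1 cell, and Sox9 had 1 and 17. The lower gene was Timp2 (0.467).

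Metallothionein, antioxidant and iron genes had 18 of 22 counted, 5 at least 2-fold higher and 1 lower, with a median log2 ratio of 0.31. The 5 were the metallothioneins Mt1 (530 and 1476 CPM, 2.79) and Mt2 (108 and 634 CPM, 5.85), both subunits of the enzyme that limits glutathione synthesis, Gclc (90 and 406 CPM, 4.51) and Gclm (144 and 649 CPM, 4.52), and the glutathione reductase gene Gsr (2.18). Gclm was 1.52 in proximal tubule, 1.54 in thick ascending limb, 1.14 in distal convoluted tubule and 1.41 in principal cells. The catalase gene Cat was the lower one (0.477), and Hmox1 had 8 and 23 UMIs.

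Among genes of energy metabolism, all 13 mitochondrial transcripts were within 2-fold, with a median log2 ratio of -0.37. The 22 nuclear respiratory chain genes had a median of -0.44, with 0 higher and Ndufb8, a subunit of complex I, as the 1 lower gene (2084 and 804 CPM, 0.386). Cells led by Fst, which had more mitochondrial UMIs, were fewer in ischemia (19 against 34), and these medians also carry that difference in mix. Their values under the control mix of leading markers are not given here. Glycolysis and hypoxia genes had a median of -0.36, with 16 of 22 counted and Hk2, a hexokinase, as the 1 gene at least 2-fold higher (3.11), and Gapdh (1.47) and Hk1 (0.571) on either side of 1. The 20 ribosomal protein genes had a median log2 ratio of 0.71, with 2 at least 2-fold higher (Rps2 at 2.76 and Rpl32 at 2.05), and every one of the 20 was above 1.

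Immediate early genes were abundant in both libraries. Of 22 immediate early genes 19 were counted, with 1 at least 2-fold higher (Fosl1, 4.92), 2 lower (Klf2 at 0.484, with a log2 ratio of 0.28 under stricter exclusion of other cell types, and Dusp1 at 0.487) and a median log2 ratio of -0.37. Fos was 2863 CPM in control and 2196 in ischemia, and Atf3 1548 and 1432. Heat shock and unfolded protein genes had 17 of 20 counted and a median of 0.15, with Hspa8 higher (2.08) and Hspa1a (384 and 106 CPM, 0.275) and Hspa1b (0.5) lower. The growth arrest and p53 list had 8 of 14 counted and a median of 0.66, with Cdkn1a, which encodes the cell cycle inhibitor p21, higher (45.3 and 129 CPM, 2.85) and Gadd45b and Gadd45g (0.215) lower. Of 16 cell cycle genes only Pcna and Ccnd1 were counted, and Ccnd1, cyclin D1, was lower (346 and 103 CPM, 0.298), though its log2 ratio was 0.57 in cells led by Bst1. Mki67 had 0 and 1 UMI.

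Among cytokines, chemokines and genes of NF-kB, 12 of 26 were counted, 3 at least 2-fold higher and 0 lower, with a median log2 ratio of 0.09. The 3 were the neutrophil chemokine genes Cxcl1 (17.2 and 53.7 CPM, 3.11) and Cxcl2 (1 and 118 UMIs, 65.7, with 42.4% of the ischemia UMIs in 1 cell; without the top cells control is at 0 and the log2 ratio is at least 3.66, against the floor of 3 counts) and Tnfrsf12a, the receptor of TWEAK (68.9 and 286 CPM, 4.15). Cxcl1 was 7.46 and 81.7 CPM in cells led by Fst and 31.1 and 50 CPM in those led by Slc14a2. Il34, a ligand of the receptor encoded by Csf1r, was 138 and 133 CPM. Il1r1, the interleukin-1 receptor, had 27 and 18 UMIs and fell short of the minimum. Interferon and class I genes had a median of 0.01, with 11 of 18 counted, Bst2 (2.04) and Ly6e (74 and 448 CPM, 6.05) higher and Irf1 lower.

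Matrix and protease genes had 20 of 25 counted, 4 at least 2-fold higher and 2 lower (4.62% and 5.58% over all genes), with a median log2 ratio of 0.1. The inhibitor gene Timp1 went with the higher ones (2 and 176 UMIs, 49, 13.4 to 408) and its relative Timp3 with the lower ones (1510 and 366 CPM, 0.243, 0.225 to 0.261). Timp3 was 0.301, 0.256 and 0.28 in cells led by Fst, Slc14a2 and Bst1. The protease genes Adamts1 (81 and 352 CPM, 4.34) and Plat and the urokinase receptor gene Plaur (2.33) were higher, and the basement membrane collagen Col4a4 was lower (0.441). Claudin and tight junction genes had 12 of 19 counted and a median of 0.09, with Cldn4 higher (40.2 and 123 CPM, 3.07) and Cldn8 lower (148 and 57.9 CPM, 0.391). Cldn4 was 5.65 and 186 CPM in cells led by Slc14a2 and 139 and 182 CPM in those led by Bst1.

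Lists around the gate genes Fst, Epha7 and Bst1 hold those genes among their members. The follistatin, activin and TGF-beta list had 12 of 24 counted, 0 higher and 1 lower, with a median log2 ratio of 0.15. The lower one was Smad7, an inhibitory SMAD (137 and 49.4 CPM, 0.36), and the activin subunit genes Inhba and Inhbb had 3 and 5 UMIs and 0 and 1 UMI. The ephrin and EGF family list had 8 of 23 counted and a median of 0.15 at 2 decimals, with the ephrin gene Efna5 (58.7 and 223 CPM, 3.79) and the receptor gene Erbb4 (419 and 851 CPM, 2.03) higher. The direction of Erbb4 turned with the control mix of leading markers applied to both libraries (log2 ratio -0.21) and in cells led by Bst1 (-2.35). Of the NAD genes 3 of 15 were counted, with Nampt, which makes nicotinamide mononucleotide, lower (258 and 128 CPM, 0.495) and a median of -0.47, the value of Bst1 itself.

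**Figure D5:**
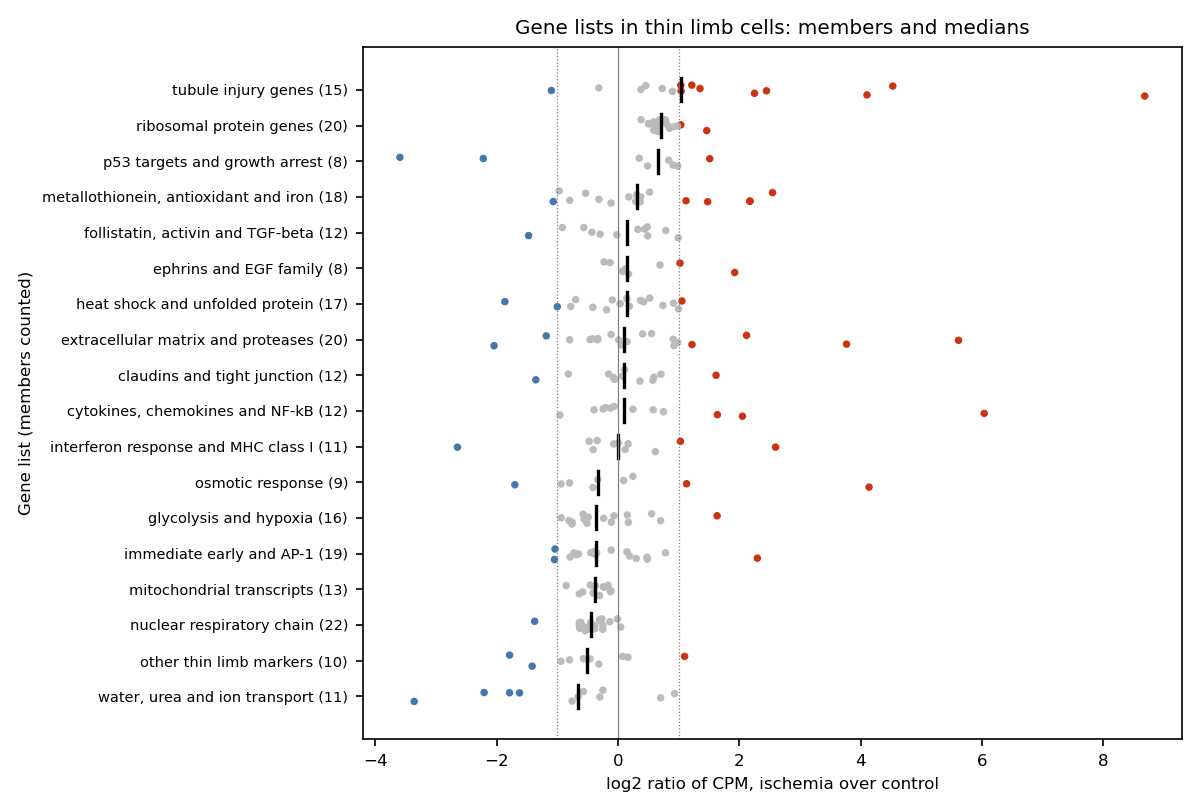
Each point is the log2 ratio of ischemia to control CPM of 1 gene with at least 100 UMIs in thin limb cells, in rows by gene list with the number counted, red where at least 2-fold higher and blue where at least 2-fold lower, with black bars at list medians and dotted lines at 2-fold. Among the lists drawn, those with at least 8 genes counted, tubule injury genes have the highest median (1.04) and water, urea and ion transport genes the lowest (-0.66).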

How the data were processed

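Whole kidneys were digested and run on the 10X single cell 3' v2 platform, 1 control and 1 ischemia library. The authors deposited filtered matrices of raw UMI counts per gene and barcode; the submitters' processing notes name Cell Ranger 7.0.0 and mm10. Kept barcodes had 200 genes or more, between 1000 and 150000 UMIs, and no more than 55% of UMIs from mitochondrial genes. Counts were summed over gated cells and given as CPM with exact Poisson 95% intervals; ratios had exact conditional binomial intervals and shares exact Clopper-Pearson intervals. A gene was counted at 100 UMIs or more over both libraries, and against 0 the floor was 3 counts. No clustering and no doublet caller was run; alternatives left out deep and mixed cells. Shares were also taken after thinning to 2000 UMIs. Genes named were the gate genes and the 15 highest over other gates. They also held the 15 highest and 15 lowest ratios among genes with at least 200 UMIs in at least 20 cells. From each list they held the 5 most abundant members and those past 2-fold. Not every list member of this set, past 2-fold or not, is printed in the text. Others named in the text (Sptssb, Vcam1, Sox9, Hmox1, Mki67, Il1r1, Inhba and Inhbb among them) were chosen after their values were seen. The cell rule, gene lists and members were chosen with earlier results of these data known. Tables were built in Python 3.11.15 with pandas 2.3.3, intervals with scipy 1.17.1 on numpy 2.4.6 and figures with matplotlib 3.10.9, and the computation was tested on simulated data. A few genes are not reported here.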

Additional observations from a re-analysis of the deposited data

Results flagged for a closer look

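Some genes had ratios of ischemia to control CPM that lay past 2-fold in opposite directions in 2 sets of cells. They were picked for that opposition, which is thus a description only. None of these differences was tested, since each condition is 1 library. Between thin limb cells led by Fst and those led by Slc14a2, Aqp1 was 0.279 and 16.9, Slc4a11 was 0.487 and 6.3, and Klk1 was 0.122 and 2.18. Single cells carried part of this, by a check chosen after the data were seen. For Klk1, 1 cell held 88.6% of the control UMIs in cells led by Fst and 1 cell held 85.7% of the ischemia UMIs in cells led by Slc14a2, and without the top cell of each library both ratios were below 1 (0.577 and 0.377). For Aqp1 in cells led by Slc14a2, 1 ischemia cell held 49.2% of the UMIs and 30 of 43 cells had none, and the ratio without the top cells was 11.9. Slc4a11 there had 6 control UMIs, 50% of them in 1 cell, and 158 ischemia UMIs, 13.3% of them in 1 cell, and the ratio without the top cells was 11.5. Cells led by Slc14a2 went from 26.3% of control to 55.1% of ischemia thin limb cells, so the groups compared can differ in make-up, and the part of this in the ratios was not tested.

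Between thin limb cells and proximal tubule cells, the protease genes Adamts5 (7.13 and 0.126) and Plat (13.6 and 0.369), the proteoglycan gene Gpc6 (11.2 and 0.194) and the hyaluronan receptor gene Cd44 (4.76 and 0.454) were higher in ischemia in the thin limb and lower in the proximal tubule. Gadd45g (0.215 and 2.41) and Irf1 (0.16 and 2.16) had the opposite order, and Irf1 was 2.63 in distal convoluted tubule cells, where Gadd45b was 2.95 against 0.0828 in thin limb cells. Against thick ascending limb cells, the angiotensinogen gene Agt was 0.106 in thin limb cells and 5.71 there, and Nampt was 0.495 and 2.07. Atp6v1g3 was 3.28 in thin limb cells, 0.24 in proximal tubule cells and 0.284 in thick ascending limb cells, and 92.9% of its ischemia thin limb UMIs came from 1 cell. For Adamts5 too, 1 cell held a large part of the ischemia thin limb UMIs, as given above. A gene entered this comparison with at least 100 UMIs in the other gate. Proximal tubule cells held 76794076 UMIs in control and 67463930 in ischemia, so a ratio there can rest on a low level.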

How the results depend on the processing

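No paired analysis was possible because each condition is 1 library. The share of kept cells in the gate was 0.842% in control and 0.989% in ischemia. With a minimum of 500 UMIs per cell it was 0.604% and 0.595%, with a limit of 25% mitochondrial UMIs 1.22% in control, without Fst in the gate 0.653% in control, without Slc14a2 0.685% in ischemia, and with stricter exclusion of other cell types 0.432% and 0.634%. The genes at least 2-fold higher and lower (278 and 336) numbered 166 and 203 at a minimum of 200 UMIs and 777 and 861 at 1.5-fold, with 536 lower at a minimum of 50 UMIs and 143 lower under the stricter exclusion, which moved the median log2 ratio of all genes to 0.21. Of the 614 genes past 2-fold, 313 were counted under that exclusion, 311 of them with the same direction and 232 still past 2-fold; of the 99 named genes past 2-fold, 94 kept their direction and 82 stayed past 2-fold.

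Splits by leading marker were added after seeing the data. They gave 178 higher and 211 lower genes in cells led by Fst and 100 and 163 in cells led by Bst1. With the control mix of leading markers applied to both libraries, 610 of the 614 genes kept their direction and 536 were still past 2-fold. Of the 99 named genes past 2-fold, 90 had the same direction in cells led by Fst, 89 with Slc14a2 and 80 with Bst1, and 81, 75 and 59 were still past 2-fold. Of the 614 genes, 283 reached the minimum of 100 UMIs in cells led by Fst, 329 with Slc14a2 and 151 with Bst1. Of these, 281, 324 and 145 kept their direction. The reversed log2 ratios given here are those of named genes that reached this minimum in the subset. In cells led by Slc14a2 they were 4.08 for Aqp1, 0.82 for Fxyd2, 1.13 for Klk1 and -0.44 for Slc5a3. In cells led by Bst1 they were 0.57 for Ccnd1, -0.16 for Cd24a, -0.59 for Cp and -2.35 for Erbb4. Erbb4 was also -0.21 under the control mix. Atp6v1g3 was -1.47 with 10 marker UMIs and 0.06%, -2.60 without Slc14a2, -1.72 under the stricter exclusion, -0.54 by the mean of each cell's CPM and -1.93 without its top cell. Dcn was 0.013 without Fst, Corin 0.096 without Slc14a2 and Klf2 0.28 under the stricter exclusion. Apart from those built on fewer cells or genes, the cause was not tested. With 76 and 78 cells, genes under 100 UMIs were beyond this depth.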

Other observations

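Barcodes above the limit of 55% mitochondrial UMIs numbered 2524 in control and 2137 in ischemia, and 3 and 1 of them met every other criterion of the thin limb gate.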
